A study of Mus musculus with 24 samples.

Results

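The Mdm4 transgene by itself was examined in sorted mouse bone marrow cells by setting 3 Mdm4Tg libraries against 4 wild-type (WT) libraries, all from mice given PBS, out of 24 libraries in the series. The libraries were chosen by their genotype and treatment labels, and all genes with a normalised count of 10 or more in 2 or more libraries were compared, which left 12628 of the 26267 genes listed. The series covers LSK cells, the bone marrow fraction that lacks lineage markers and carries Sca-1 and Kit, from mice labelled Mdm4Tg, WT, FancgKO_Mdm4Tg or FancgKO after PBS or Poly(IC), a synthetic double-stranded RNA. The labels of the Mdm4Tg and WT groups name no Fancg deletion, so these groups differ in the transgene label and share the vehicle. The promoter and copy number of the transgene, the age of the mice, the PBS schedule and the number of animals behind a library are not given in the sources used here. The p-values therefore measure only the spread between these samples, which may be technical.

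Mdm4 is a relative of Mdm2. Both bind the activation domain of p53, the transcription factor that answers DNA damage and other stress, and Mdm2 is also the ubiquitin ligase that sends p53 to degradation. p53 in turn switches on Mdm2, the cell-cycle inhibitor gene Cdkn1a and death genes such as Bbc3 and Pmaip1, and in blood stem cells this pathway weighs on quiescence, self-renewal and survival after damage.

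The 7 libraries held 1255703 to 4801746 reads. Replicate numbers 2, 7 and 8 occur in both genotypes and number 6 only in WT. The column names end in d for Mdm4Tg replicate 7 and WT replicates 6 and 7, and in d_2 for the other 4 libraries, so the ending d covers 1 of 3 Mdm4Tg libraries against 2 of 4 WT libraries. What the ending stands for is not given in the sources used here. Of the defining genes of the sort, Kit was present in every library, at 2138 to 2414 in Mdm4Tg against 1912 to 2344 in WT, while Ly6a, which encodes Sca-1, was low in both, at 19.64 to 45.91 in Mdm4Tg against 24.78 to 42.62 in WT. Xist was at most 24.78 in all 7 libraries. WT replicate 6 stood apart by its granulocyte progenitor RNA: Mpo, which encodes myeloperoxidase, was at 9805 there, against 1133 to 2973 in the other WT libraries and 1376 to 3104 in Mdm4Tg. In bulk samples of this kind, fewer cells of a type and less RNA per cell cannot be told apart.

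Mdm4 rose in the transgenic cells and was the only gene that did in the fit over 24 libraries. Its normalised count was 7105, 6571 and 6367 in Mdm4Tg replicates 2, 7 and 8, against 938.4, 758.3, 946.5 and 955 in WT replicates 2, 6, 7 and 8. The lowest transgenic library thus lay far above the highest WT library, and the groups did not overlap. The means were 6681 ± 380.9 in Mdm4Tg (SD, n = 3) and 899.5 ± 94.4 in WT (SD, n = 4), a log2 difference of 2.90 ± 0.14 (SE) on the scale of log2(normalised count + 1), or 7.45-fold, with an adjusted p of 4.37e-12 in limma with Benjamini-Hochberg adjustment. The gene (ENSMUSG00000054387) lies on the minus strand of chromosome 1 of mm10, at 132959484 to 133030561. The count sums the reads of the resident gene and of any transgene copy, and it gives no protein level.

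**Figure D1:**
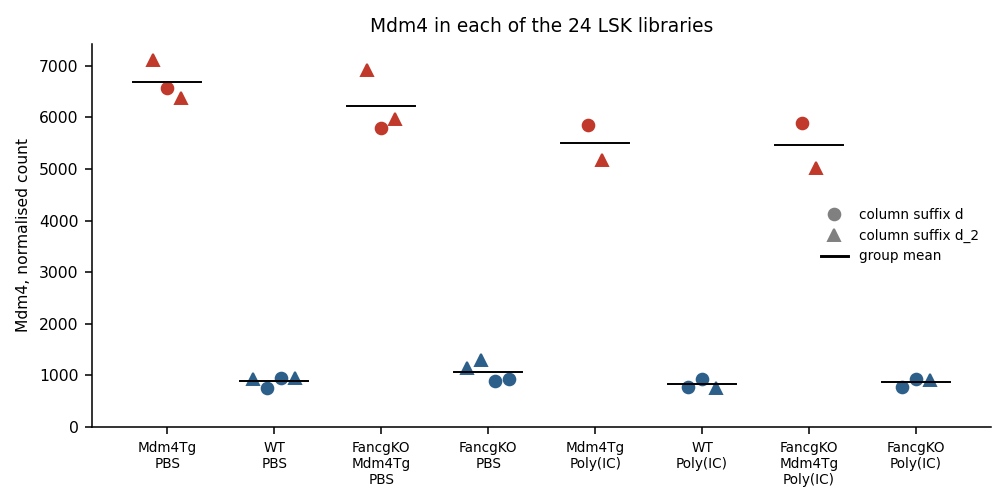
Normalised count of Mdm4 (vertical axis, linear, from 0) in each of the 24 libraries, by genotype and treatment (horizontal axis). Points are libraries, shaped by the ending of the column name, and black lines are group means; the Mdm4Tg libraries with PBS lie between 6367 and 7105 and the WT libraries with PBS between 758.3 and 955.

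The higher level did not extend to the genes around Mdm4. Of the 5 nearest protein-coding genes on each side, 5 were expressed enough to test (Rbbp5, Tmem81, Pik3c2b, Ppp1r15b and Plekha6), and in each of them the Mdm4Tg and WT values overlapped. Rbbp5, a subunit gene of histone H3 methyltransferase complexes, had 194.3, 216.1 and 188 in Mdm4Tg against 202.2, 171.7, 194 and 189.3 in WT. Pik3c2b, a lipid kinase gene, had 47.83, 47.14 and 79.24 in Mdm4Tg against 51.5, 37.16, 50.17 and 44.6 in WT. The difference of Pik3c2b, 0.30 ± 0.28 (SE, n = 3 and 4; limma adjusted p = 0.999), was smaller than 2 SE and rested on replicate 8.

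Across the transcriptome limma called 1 of 12628 genes, or 0.00792%. At an unadjusted p under 0.05 there were 139 genes higher (1.1%) and 178 lower (1.41%), 317 in all or 2.51%. Mdm4Tg and WT values did not overlap for 342 higher genes (2.71%) and 294 lower genes (2.33%), and the median log2 difference over all genes was 0.003. With the replicate number as a block, limma again called Mdm4 alone, at 2.84 ± 0.09 (SE; adjusted p = 6.35e-16), with 4.66% of genes at an unadjusted p under 0.05 and 50.1% negative. When only the 7 libraries were fitted with that block, 23 genes passed, or 0.182%, of which 5 were higher and 18 lower, and these are described with their groups. WT replicate 6 has no partner, so that fit rests on the 3 same-numbered pairs. Few residual degrees of freedom remain in it, and its SE and p-values are uncertain wherever they are given below.

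Among genes with a mean of at least 50, none but Mdm4 passed the adjusted threshold, and some of those with small p are described here. The 12 higher genes of smallest p began with D230049E03Rik, Gm45853, Gm16973, Aig1 and Gm37653, at unadjusted limma p of 0.0075 to 0.0089. The 12 lower ones began with Hist1h4j, Rnu12, Gm23935 and Gm23639. The genes described next are protein-coding and stood further down. The higher ones included Mllt10, which encodes a partner of the H3K79 methyltransferase Dot1l, with 464.9, 508.8 and 449.6 in Mdm4Tg against 383.4, 353.1, 391.3 and 399.4 in WT (0.31 ± 0.11, SE, n = 3 and 4; limma adjusted p = 0.999). Dclre1c, which encodes Artemis, the nuclease that opens hairpins in V(D)J recombination and end joining, had 118.1, 100.2 and 93.07 in Mdm4Tg against 80.1, 56.63, 68.56 and 88.71 in WT. Sltm, an RNA-binding protein gene, had 619.6, 636.4 and 593 in Mdm4Tg against 474.9, 446.8, 516.7 and 571.4 in WT. In these 3 genes every Mdm4Tg library was above every WT library, by small margins. Of the 12 higher genes, D230049E03Rik, Aig1, Zdhhc9 and Gm37745 overlapped between the groups. The lower ones included Ubr7, which encodes a reader and ligase of the N-end rule family, with 211.5, 174.8 and 225.1 in Mdm4Tg against 272.7, 245.1, 269.2 and 255.7 in WT (-0.36 ± 0.12; limma adjusted p = 0.999). Acat1, the mitochondrial acetoacetyl-CoA thiolase gene, had 148.7, 127.7 and 161 in Mdm4Tg against 213.6, 212.4, 187.3 and 175.4 in WT, and Usp39, a splicing factor gene, had 97.16, 82.5 and 91.18 in Mdm4Tg against 118.2, 157.5, 108.7 and 125.9 in WT. In these the Mdm4Tg libraries were the lower ones without overlap, while Hist1h4a and Snord17 of the 12 lower genes overlapped.

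The genes that set the level and activity of p53 lay close to their WT levels. Of 22 measured members of this control loop (22 of 22 tested), 14 had a positive and 8 a negative difference, with a median of 0.06 beside 0.003 over all genes, and Mdm4 itself was the 1 that passed. Trp53, which encodes p53, had 257.9, 373.2 and 252.2 in Mdm4Tg against 305.2, 340.7, 324.4 and 240.9 in WT, a difference of -0.05 ± 0.18 (SE, n = 3 and 4; limma adjusted p = 0.999). Mdm2 had 237.7, 257.3 and 226.4 in Mdm4Tg against 219.3, 190.2, 247.5 and 246.8 in WT, a difference of 0.10 ± 0.13 (limma adjusted p = 0.999). Both sets of values overlapped throughout, and neither gene passed.

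A few of the regulators nevertheless had Mdm4Tg and WT values that did not overlap: 5 higher, Mdm4 included, and 1 lower, beside 2.71% and 2.33% of all genes. Ppm1d, which encodes the phosphatase Wip1 and is both a p53 target and a brake on p53, was the lower one, with 64.28, 64.82 and 66.66 in Mdm4Tg against 87.73, 82.29, 88.63 and 84.25 in WT. The spread within each genotype was narrow, and the difference was -0.39 ± 0.17 (SE, n = 3 and 4), with an unadjusted limma p of 0.0312 that did not survive adjustment (adjusted p = 0.999). Huwe1, a large ubiquitin ligase gene that can act on p53 and Mcl1, had 2600, 2740 and 2609 in Mdm4Tg against 2146, 2281, 2286 and 2396 in WT (0.22 ± 0.12; limma adjusted p = 0.999). The other 3, picked out after their values were seen, were Usp7, the deubiquitinase gene that stabilises Mdm2 and p53, at 816.9, 811.3 and 874.1 in Mdm4Tg against 801, 722.9, 727.4 and 788 in WT, and the genes of the acetyltransferase Crebbp and of the damage-signalling protein Trp53bp1, at 0.21 ± 0.14 and 0.25 ± 0.17. Kat5, the Tip60 acetyltransferase gene, had 47.83, 62.86 and 47.16 in Mdm4Tg against 68.66, 76.98, 78.6 and 55.51 in WT and was below its same-numbered WT library in 3 of 3 pairs, as were 14.5% of all genes.

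Target genes of p53 were on balance slightly lower, none of them past the adjusted threshold. For the arrest genes 10 of 12 tested had a negative difference (median -0.17), for the death genes 9 of 13 (median -0.12) and for the stress and repair genes 11 of 19 (median -0.22), beside 49.5% of all genes. Within pairs of the same replicate number the medians for arrest genes were -0.20, 0.04 and 0.01 in numbers 2, 7 and 8, so the sign of that list was not the same in every pair. For the death genes they were -0.07, -0.06 and -0.09, and for the stress and repair genes 0.07, -0.30 and -0.08. Cdkn1a, the p21 gene, varied widely within both genotypes, with 13.45, 47.14 and 16.98 in Mdm4Tg against 26.7, 38.05, 43.48 and 9.416 in WT. Its difference was -0.20 ± 0.44 (SE, n = 3 and 4; limma adjusted p = 0.999), and its high values were those of the libraries whose column ends in d, with WT replicate 2 between. Gadd45a, a growth arrest gene, had 14.2, 41.25 and 21.38 in Mdm4Tg against 28.61, 45.13, 38.46 and 30.73 in WT. Ccng1, the cyclin G1 gene, had 272.1, 214.1 and 253.4 in Mdm4Tg against 326.1, 267.2, 235.8 and 290.9 in WT and was below its same-numbered WT library in each of the 3 pairs.

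Bbc3, which encodes the pro-apoptotic protein Puma, stood lowest among the p53 targets. Its normalised count was 4.484, 3.929 and 5.031 in Mdm4Tg against 17.17, 7.964, 10.03 and 15.86 in WT, and the groups did not overlap. The log2 difference was -1.27 ± 0.40 (SE, n = 3 and 4), with an unadjusted limma p of 0.00452 and an adjusted p of 0.999. These counts rest on 6, 2 and 8 reads in Mdm4Tg against 9, 9, 6 and 32 reads in WT, so the depth behind the gene is thin. Pmaip1, the Noxa gene and another BH3-only death gene, went the other way, with 6.727, 9.822 and 6.289 in Mdm4Tg against 1.907, 7.964, 3.345 and 4.956 in WT (0.73 ± 0.48; limma adjusted p = 0.999). Bax, their effector, had 12.71, 15.71 and 17.61 in Mdm4Tg against 13.35, 32.74, 15.05 and 18.83 in WT. Aen, an apoptotic nuclease gene, had 46.34, 43.21 and 42.13 in Mdm4Tg against 53.4, 54.86, 45.15 and 52.53 in WT. The 4 death genes thus shared no common direction. Of the stress and repair genes, Polh, a translesion polymerase gene, had 55.31, 62.86 and 63.51 in Mdm4Tg against 59.12, 92.02, 105.4 and 67.9 in WT (-0.38 ± 0.22; limma adjusted p = 0.999). Ddit4, an inhibitor of mTORC1 signalling, had 27.65, 43.21 and 20.12 in Mdm4Tg against 34.33, 53.98, 71.91 and 27.75 in WT and was lower in 3 of 3 pairs.

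**Figure D2:**
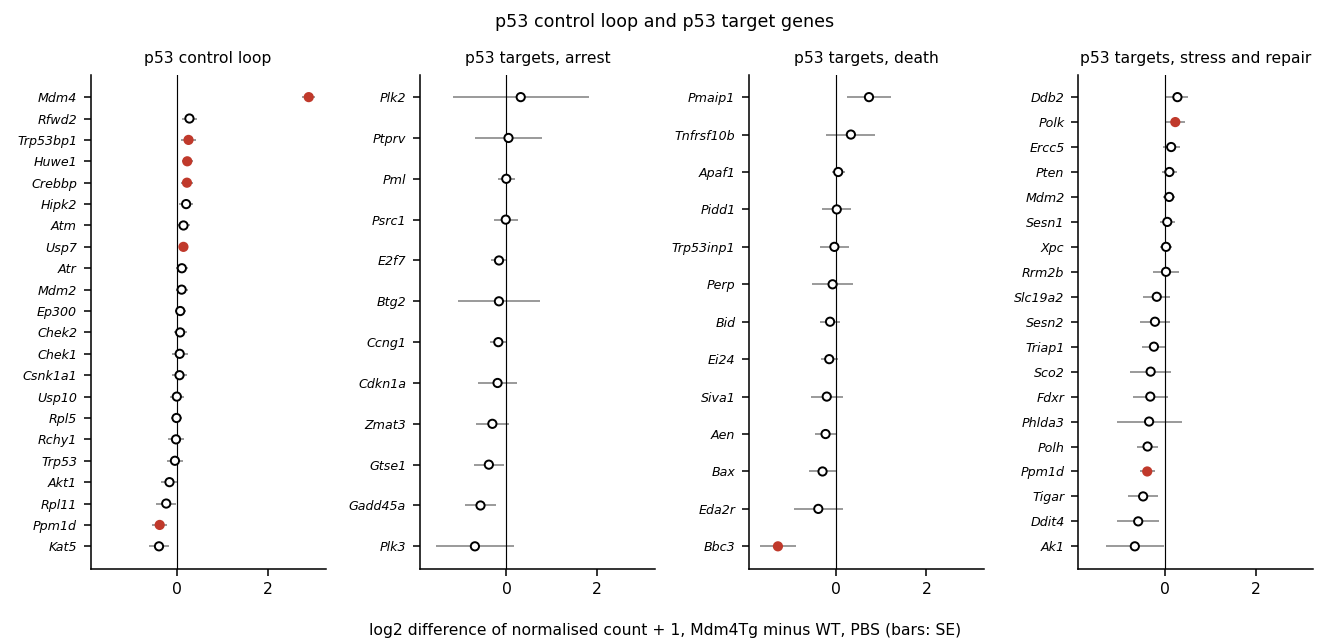
Log2 difference of normalised count + 1, Mdm4Tg minus WT with PBS (horizontal axis, bars are SE, n = 3 and 4), for the tested members of the p53 control loop and of 3 groups of p53 targets (vertical axis, ordered by value within each panel). Filled red points are genes whose Mdm4Tg and WT values do not overlap; Mdm4 stands at 2.90 and Bbc3 at -1.27, and most other genes lie within their SE of 0 or close to it.

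The promoter stretches of Ppm1d, Mdm2 and Cdkn1a are shown because they carry the letters of a p53 half-site, and are the genes of the loop and its targets described above. They are from RefSeq on GRCm38.p6, on the strand of the gene, upstream of the annotated start, with matches to the p53 half-site in capitals. They lie at chr11:85311102-85311151 on the plus strand, chr10:117710915-117710964 on the minus strand and chr17:29090886-29090957 on the plus strand.
Ppm1d: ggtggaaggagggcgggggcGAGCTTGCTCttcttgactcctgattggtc
Mdm2: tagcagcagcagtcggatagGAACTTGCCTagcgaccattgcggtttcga
Cdkn1a: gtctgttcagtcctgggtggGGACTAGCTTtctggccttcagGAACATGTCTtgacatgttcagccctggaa
The half-site was searched on both strands, and it reads the same way round on each. It occurred in a window of 13 of the 34 tested p53 targets that had one, and in 9.55% of all 27025 genes with a window. No match was found in the 3 windows of Bbc3, in the 2 of Mdm4 or in the other window of Cdkn1a, at chr17:29093519-29093818. The Cdkn1a stretch shown is from the window further upstream. The differences of the 3 genes shown were -0.39 ± 0.17 for Ppm1d, 0.10 ± 0.13 for Mdm2 and -0.20 ± 0.44 for Cdkn1a (SE), none of them called.

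A whole class of genes, the replication-dependent histones, had lower values in Mdm4Tg, though no single one passed over 24 libraries. These genes make the bulk of new histones in S phase, their mRNAs normally end in a stem-loop in place of a poly(A) tail, and the protein Slbp binds that stem-loop. The labels give the RNA as polyadenylated, so the counts cover only what such a library retains of these transcripts. The stem-loop letters are shown for 6 of them, from the GENCODE transcripts on GRCm38, with the stem-loop in capitals, searched as GG, 2 free letters, CTTTT, 1 free letter, AG, 2 free letters and CC.
Hist1h4j: taaaGGTCCTTTTCAGGACCaccacatctt
Hist1h4f: caaaGGCCCTTTTCAGGGCCacccactttg
Hist1h2bm: caaaGGCTCTTTTCAGAGCCactaagcagt
Hist1h3f: aaacGGCTCTTTTAAGAGCCacctccatta
Hist1h1e: caaaGGCTCTTTTCAGAGCCacccacaact
Hist1h2ag: caaaGGCTCTTTTCAGAGCCacctaacctt
They lie at chr13:21735433-21735462 (plus), chr13:23551281-23551310 (minus), chr13:21722502-21722531 (plus), chr13:23544928-23544957 (plus), chr13:23621772-23621801 (minus) and chr13:22042473-22042502 (minus) of GRCm38. The letters, searched on the transcript strand, occurred in annotated transcripts of 38 of the 57 histone genes tested (66.7%) and in 21 of 10749 other protein-coding genes (0.195%). Among the 36 that could be placed there were 6 different stem-loops, and the form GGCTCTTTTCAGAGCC was the most frequent, in 20.

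Of 66 listed histone genes 57 passed the expression filter, and all 57 of these had a negative log2 difference, with a median of -0.67 beside 0.003 over all genes. None passed the adjusted threshold over 24 libraries, 9 were lower at an unadjusted limma p under 0.05 (1.41% of all genes), and 3 had Mdm4Tg values wholly below the WT values (2.33% of all genes). Their summed normalised count was 4565, 10996 and 4880 in Mdm4Tg replicates 2, 7 and 8, against 6208, 16058, 14116 and 6926 in WT replicates 2, 6, 7 and 8. The libraries whose column ends in d were high in both genotypes, and within each ending the Mdm4Tg libraries were the lower ones. The pooled median was therefore larger than the medians between same-numbered libraries, which were -0.43, -0.42 and -0.58 for numbers 2, 7 and 8. In those pairs 51, 51 and 56 of the 57 genes were lower in Mdm4Tg, and 44 were lower in all 3 pairs (77.2%), beside 14.5% of all genes. With the replicate block the median was -0.48, and 33 genes were lower at an unadjusted limma p under 0.05, beside 2.59% of all genes. The unblocked median was -0.46 without WT replicate 6 and -1.11 without Mdm4Tg replicate 7, and the blocked one was -0.28 without Mdm4Tg replicate 8.

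All 5 histone families took part. The median difference was -0.65 over 5 linker histone H1 genes, -0.67 over 13 H2A genes, -0.71 over 15 H2B genes, -0.71 over 11 H3 genes and -0.67 over 13 H4 genes. In this pooled fit the smallest difference of any member was -0.36 and the widest -1.18. With the replicate block the family medians were -0.41, -0.45, -0.50, -0.52 and -0.50 in the same order. Hist1h4j had 59.04, 76.61 and 76.72 in Mdm4Tg against 104.9, 132.7, 123.7 and 130.8 in WT, a difference of -0.79 ± 0.23 (SE, n = 3 and 4; limma adjusted p = 0.999). Its highest Mdm4Tg value lay below its lowest WT value, which made it the clearest member across both column endings. Hist1h4f had 116.6, 222 and 116.3 in Mdm4Tg against 171.7, 371.6, 369.6 and 209.1 in WT, and Hist1h2bm had 75.49, 125.7 and 59.11 in Mdm4Tg against 114.4, 237.1, 239.1 and 106.1 in WT. In these 2 genes the pooled groups overlapped, but each Mdm4Tg library was below its same-numbered WT library. When only the 7 libraries were fitted with the replicate block, 7 histone genes were among the 23 called: Hist1h4f fell by 0.71 ± 0.11 (SE; limma adjusted p = 0.00536), Hist1h2bm by 0.78 ± 0.14 (adjusted p = 0.00918) and Hist1h4j by 0.76 ± 0.15 (adjusted p = 0.026), beside Hist1h4d, Hist1h2ak, Hist1h2bj and Hist1h1e. That count of 23 ran between 22 and 160 as single libraries were left out, a check added after the data were seen. It was 160 without Mdm4Tg replicate 7 and 156 without WT replicate 7. Leaving out a member of a pair also removes the pair, so these counts rest on still fewer degrees of freedom.

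**Figure D3:**
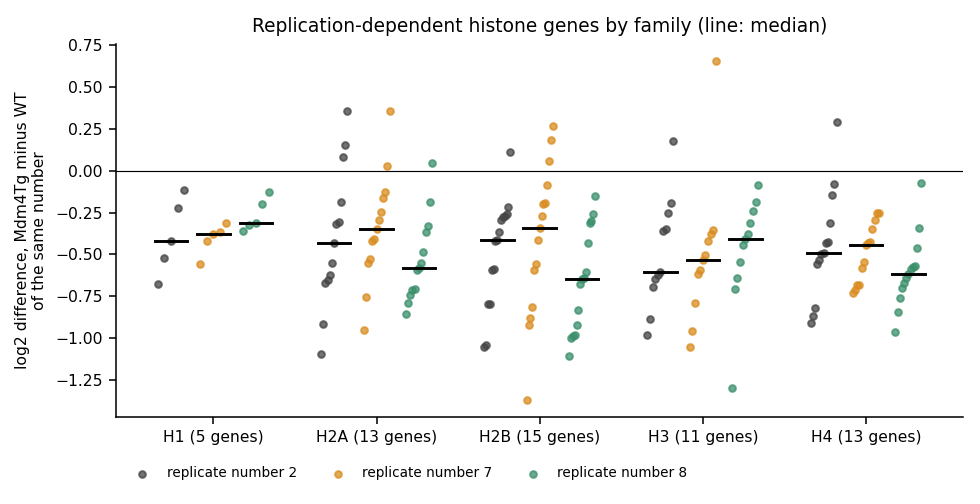
Log2 difference between the Mdm4Tg and the WT library of the same replicate number (vertical axis, log2 of normalised count + 1), for each replication-dependent histone gene, by family (horizontal axis). Points are genes, coloured by replicate number, and black lines are medians; all 15 medians lie below 0, between -0.31 and -0.65.

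Other histone genes and the machinery for histone mRNA differed less. The replication-independent histone genes, whose mRNAs are generally but not always polyadenylated, had a median of -0.22, with 11 of 11 negative. With the replicate block the median was -0.14, with 9 negative and 2 positive. Within pairs it was -0.02, -0.10 and -0.19 for numbers 2, 7 and 8. H3f3a, which encodes the variant H3.3, had 172.6, 233.8 and 160.4 in Mdm4Tg against 206, 301.7, 307.7 and 183.4 in WT (-0.38 ± 0.21, SE, n = 3 and 4; limma adjusted p = 0.999). H2afx, which encodes the damage-marking variant H2AX, had 174.1, 298.6 and 203.7 in Mdm4Tg against 185, 554.8, 439.8 and 212.1 in WT. Both were lower in 3 of 3 pairs, as were 4 of the 11 genes in all (36.4%), beside 14.5% of all genes tested. Genes for histone mRNA processing had a median of 0.06 over 14, with 10 positive and 4 negative, and Slbp itself had 236.9, 218 and 242.7 in Mdm4Tg against 267, 234.5, 209 and 222.5 in WT.

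Small non-coding RNAs, which also lack poly(A) tails, were lower in the same libraries. Of 32 tested genes annotated as small nuclear RNA, a class that includes the RNA parts of the spliceosome, 27 were negative (median -0.73). Of 100 annotated as small nucleolar or Cajal body RNA, mostly guides of RNA modification, 74 were negative (median -0.35). These 2 lists were set up after the data were seen. The summed count of the small nuclear RNA genes was 1386, 2347 and 1186 in Mdm4Tg against 1821, 2899, 3080 and 2093 in WT, lower in Mdm4Tg within each pair. Rnu12, the U12 RNA of the minor spliceosome, had 88.94, 127.7 and 58.48 in Mdm4Tg against 156.4, 136.3, 178.9 and 167 in WT and did not overlap. In the fit of the 7 libraries with the replicate block it fell by 0.93 ± 0.16 (SE; limma adjusted p = 0.00889), and 10 of the 23 genes called there were small RNA genes, among them Snord17, Snora57, Snora73b and Scarna2. Rn7sk, the 7SK RNA that restrains transcription elongation, had 2734, 4504 and 1978 in Mdm4Tg against 3574, 4565, 4968 and 3071 in WT (-0.45 ± 0.32; limma adjusted p = 0.999). A ribosomal RNA gene, CT010467.1, had 7978, 25495 and 26587 in Mdm4Tg against 89719, 27627, 44899 and 30052 in WT, without overlap. Whether the retention of RNAs without poly(A) tails had a part in the histone difference was not tested.

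The other genes called in the fit of the 7 libraries with the replicate block were few. Car2, the carbonic anhydrase 2 gene of early progenitors and erythroid cells, had 687.6, 732.7 and 649.6 in Mdm4Tg against 848.7, 587.5, 899.7 and 1109 in WT, and fell by 0.46 ± 0.09 (SE; limma adjusted p = 0.048). WT replicate 6, which has no partner in Mdm4Tg, was the only WT library below the Mdm4Tg range. The 4 genes beside Mdm4 that rose in that fit were Neat1, the scaffold RNA of paraspeckles, by 0.57 ± 0.09 (adjusted p = 0.00536), the coagulation factor gene F13a1 by 0.86 ± 0.15 (adjusted p = 0.00889), Rab44 by 0.64 ± 0.12 (adjusted p = 0.0142) and Gm43984. Neat1 had 612.9, 2956 and 723.2 in Mdm4Tg against 396.7, 1639, 1702 and 587.3 in WT, so that each Mdm4Tg library was above its partner. The levels differed more between the column endings than between the genotypes. The ending goes with the replicate number, and an effect of the ending cannot be told apart from one of the number. With the block over 24 libraries the Neat1 difference of 0.50 ± 0.24 missed the threshold (limma adjusted p = 0.953).

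Genes for ribosomes and mitochondrial respiration had small differences in one direction. Of 81 tested cytosolic ribosomal protein genes 80 were negative (median -0.31), as were 62 of 77 mitochondrial ribosomal protein genes (median -0.19), 69 of 75 nuclear genes of oxidative phosphorylation (median -0.23) and 32 of 34 proteasome genes (median -0.18). None of these genes was called. Mdm4Tg values lay wholly below WT values for 11 of 77 mitochondrial ribosomal protein genes and 10 of 75 oxidative phosphorylation genes, beside 2.33% of all genes, but for only 2 of 81 cytosolic ones. Ndufa3, a subunit gene of complex I, had 25.41, 27.5 and 27.67 in Mdm4Tg against 64.85, 45.13, 38.46 and 42.62 in WT, a difference of -0.78 ± 0.25 (SE, n = 3 and 4; limma adjusted p = 0.999). Cox5b, of complex IV, had 43.35, 35.36 and 42.13 in Mdm4Tg against 55.31, 73.44, 55.18 and 56 in WT. Sdhb, the iron-sulphur subunit gene of complex II, had 96.41, 100.2 and 90.55 in Mdm4Tg against 110.6, 146.9, 152.2 and 107.5 in WT. All 3 were narrow in Mdm4Tg and without overlap with WT, which by itself makes them lower in 3 of 3 pairs. Of the mitochondrial ribosome, Mrpl43 had 29.9, 31.43 and 34.59 in Mdm4Tg against 43.87, 60.17, 63.55 and 40.14 in WT, and Mrpl18 had 70.25, 53.04 and 68.54 in Mdm4Tg against 104.9, 96.45, 86.96 and 87.22 in WT. Among cytosolic genes Rps19, mutated in Diamond-Blackfan anaemia, had 488.8, 620.7 and 411.9 in Mdm4Tg against 591.2, 847.7, 737.5 and 566 in WT (-0.44 ± 0.19; limma adjusted p = 0.999), and these values overlapped.

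These lists differed between the column endings as well. Within pairs of the same number the medians for cytosolic ribosomal proteins were -0.17, -0.14 and -0.24, for mitochondrial ones -0.18, -0.13 and -0.06, and for oxidative phosphorylation -0.18, -0.10 and -0.16. Without WT replicate 6 the 3 medians were -0.20, -0.10 and -0.12. The cytosolic median was -0.48 without Mdm4Tg replicate 7 and -0.16 without Mdm4Tg replicate 8. The immediate early genes, which respond within minutes to handling and growth signals, differed widely between the endings. Their summed count was 1232, 17086 and 1766 in Mdm4Tg against 1131, 14845, 12631 and 1930 in WT. Their pooled median was -0.37 and, with the replicate block, 0.04. Between libraries of the same ending the medians, for d and d_2, were -0.20 and -0.21 for cytosolic ribosomal proteins, -0.21 and -0.11 for mitochondrial ones and -0.26 and -0.14 for oxidative phosphorylation.

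**Figure D4:**
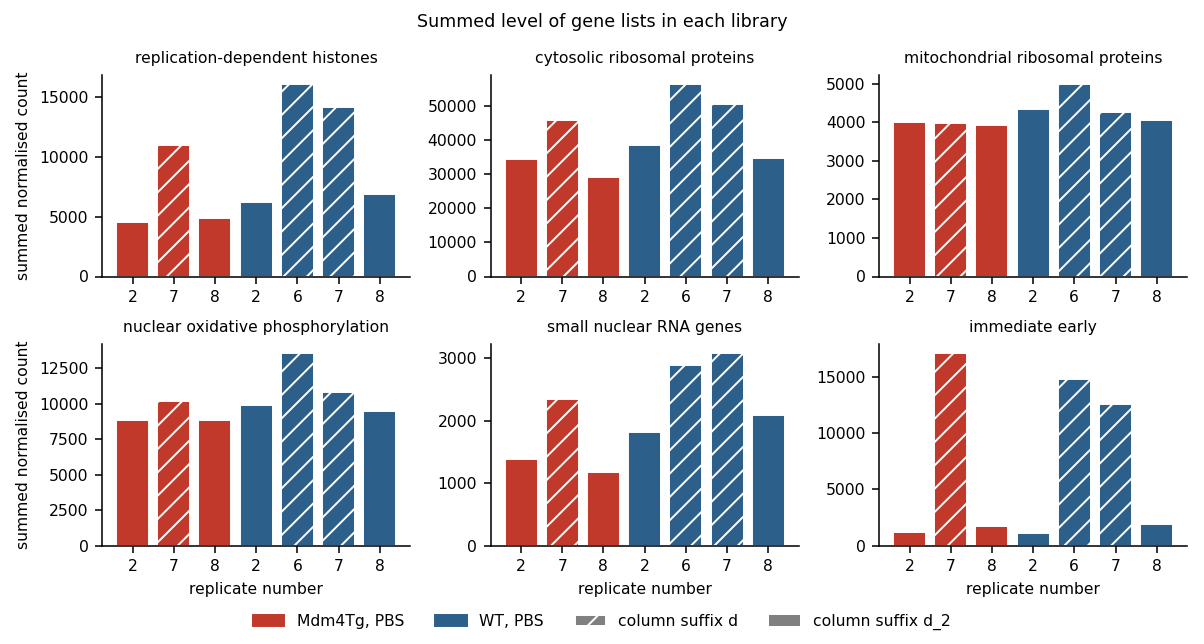
Summed normalised count of the listed genes (vertical axes, linear, from 0) in each Mdm4Tg library (red) and each WT library (blue) with PBS, by replicate number (horizontal axes), for 6 gene lists. Hatched bars are libraries whose column name ends in d; for histones the hatched bars stand at 11000 in Mdm4Tg against 16068 and 14129 in WT, and the plain bars at 4569 and 4882 in Mdm4Tg against 6212 and 6930 in WT, over all 66 listed genes.

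The cell cycle, by contrast, showed only slight shifts. S phase genes had a median of -0.11 over 50, with 38 negative, and mitosis genes -0.10 over 31, with 23 negative, none called. Pcna, the sliding clamp gene of replication, had 422.3, 463.6 and 438.9 in Mdm4Tg against 497.8, 533.6, 500 and 507.5 in WT, a difference of -0.21 ± 0.13 (SE, n = 3 and 4; limma adjusted p = 0.999). Its Mdm4Tg values were all below its WT values, which held for 1 of the 50 S phase genes (2%), beside 2.33% of all genes. Rfc5, a clamp loader subunit gene, had 108.4, 129.6 and 141.5 in Mdm4Tg against 177.4, 172.5, 197.3 and 122.9 in WT. Nusap1, a spindle protein gene, had 279.5, 253.4 and 276.7 in Mdm4Tg against 320.4, 345.1, 289.3 and 323.1 in WT, again without overlap. It was 1 of 2 wholly lower genes among the 31 mitosis genes (6.45%). Over the S phase genes the pair medians were -0.11, -0.12 and 0.10 for numbers 2, 7 and 8, so that list was not lower in every pair. For the mitosis genes they were -0.01, 0.02 and -0.14, with 16, 13 and 26 of the 31 genes lower in Mdm4Tg. The genes of the Fanconi pathway and of recombination repair divided evenly, 15 positive and 15 negative with a median of -0.01, and Fancg had 68.01, 41.25 and 61.63 in Mdm4Tg against 64.85, 65.48, 71.91 and 61.45 in WT.

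Stem cell genes differed little, while lineage lists varied between libraries. Stem cell genes had a median of 0.06 over 31, with 18 positive and 13 negative. Runx1, the master transcription factor gene of definitive blood formation, had 1164, 1228 and 1091 in Mdm4Tg against 1028, 962.7, 913.1 and 1017 in WT, a difference of 0.24 ± 0.14 (SE, n = 3 and 4, limma adjusted p = 0.999). It was the 1 stem cell gene of 31 with Mdm4Tg values wholly above WT values, beside 2.71% of all genes. Lymphoid progenitor genes had a median of 0.29 over 15, with 13 positive, and 0.04 with the replicate block; without WT replicate 6 it was 0.06 and without Mdm4Tg replicate 7 it was 0.61. Satb1, a chromatin organiser gene of lymphoid priming, had 1790, 995.9 and 1377 in Mdm4Tg against 1356, 684.9, 1000 and 1214 in WT. Neutrophil and granulocyte progenitor genes had a median of -0.34 over 14, but 0.09 with the block, and their summed count was 2108, 4210 and 2334 in Mdm4Tg against 1835, 13159, 4139 and 1731 in WT. The high value is that of WT replicate 6, without which the median was 0.27, while it was -0.74 without WT replicate 2 or without WT replicate 8. The pairs went opposite ways, with medians of 0.53, -0.17 and 0.44 for numbers 2, 7 and 8, and 3, 10 and 1 of the 14 genes lower in Mdm4Tg. Ms4a3, a membrane protein gene of granulocyte and monocyte progenitors, had 12.71, 17.68 and 31.44 in Mdm4Tg against 17.17, 184, 58.53 and 21.31 in WT, while Cebpa, the transcription factor gene of that lineage, had 66.52, 92.32 and 69.17 in Mdm4Tg against 66.75, 161.9, 112 and 57.98 in WT. Class I antigen presentation genes had a median of -0.22 over 14, with 13 negative, and -0.12 with the block. Their pair medians were -0.10, -0.28 and -0.05, and the median ran from -0.32 without Mdm4Tg replicate 7 to -0.09 without WT replicate 6. B2m, the invariant chain gene, had 2549, 2671 and 2417 in Mdm4Tg against 3492, 3049, 2788 and 3342 in WT, and Tapbp, which encodes tapasin, had 206.3, 225.9 and 232 in Mdm4Tg against 246, 295.5, 287.6 and 250.8 in WT. Neither of these 2 genes overlapped or passed, and 2 of the 14 genes (14.3%) lay wholly below WT, beside 2.33% of all genes.

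Ebf1, the transcription factor gene that commits cells to the B lineage, had the widest positive difference among the lineage genes described. It stood at 28.4, 9.822 and 23.9 in Mdm4Tg, from 38, 5 and 38 reads, against 9.536, 0, 0 and 5.452 in WT, from 5, 0, 0 and 11 reads. The lowest Mdm4Tg value barely exceeded the highest WT value, and both rest on 5 reads. Outside Mdm4Tg with PBS no library of the series reached a normalised count of 10. Ebf1 therefore passed the expression filter only through the group in which it was high. Its difference and its lack of overlap are thus not independent of the filter and carry little weight. The difference was 2.79 ± 0.94 (SE, n = 3 and 4), with an unadjusted limma p of 0.00711 and an adjusted p of 0.999, and its size depends on the pseudocount of 1. Pax5, another B lineage transcription factor gene, gave no such pattern, with 10.46, 1.964 and 5.66 in Mdm4Tg against 11.44, 0.8848, 0 and 3.469 in WT.

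The same transgene was present in Fancg-deficient cells and after Poly(IC), which share no library with the comparison above. These comparisons set 3 FancgKO_Mdm4Tg against 4 FancgKO libraries with PBS, and 2 Mdm4Tg against 3 WT libraries with Poly(IC). Xist levels differed between libraries there: Xist, which is expressed from the inactive X chromosome of females, was at most 1.725 in FancgKO_Mdm4Tg against 0 to 18007 (median 3901) in FancgKO with PBS, and at most 0.8339 in Mdm4Tg against 0.3129 to 20207 (median 5943) in WT with Poly(IC). Its part in these comparisons was not tested. Mdm4 rose by 2.56 in FancgKO_Mdm4Tg against FancgKO with PBS and by 2.74 in Mdm4Tg against WT with Poly(IC), and in each of these it was again the 1 gene called by limma (0.00792%), while 4.47% and 0.333% of genes had an unadjusted p under 0.05. Its difference between backgrounds was -0.34 ± 0.19 (SE) by Fancg and -0.15 ± 0.21 by Poly(IC), with limma adjusted p = 0.9997 and 1. Over all genes the test of the difference itself called 0 by Fancg, with 265 at an unadjusted p under 0.05 (2.1%), and 0 by Poly(IC), with 61 (0.483%). edgeR on the recovered reads also called 0 in each.

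The histone, ribosomal and respiratory medians lay closer to 0 in those settings. The histone median was -0.27 in FancgKO_Mdm4Tg against FancgKO, with 52 of 57 negative beside 48.9% of all genes, and -0.15 under Poly(IC), with 46 of 57 negative beside 49.6% of all genes. With the replicate block the histone medians were -0.09 and 0.04, so the sign under Poly(IC) turned. Hist1h4j was at -0.21 and 0.41 in these comparisons. Oxidative phosphorylation genes had medians of -0.05 and -0.06, and cytosolic ribosomal protein genes of -0.05 and -0.10; with the block these were -0.04 and 0.03, and 0.05 and 0.03. Small nuclear RNA genes were at -0.08 in the Fancg-deficient comparison, or 0.05 with the block, and at 0.37 under Poly(IC), or 0.47 with the block. Lymphoid progenitor genes were at 0.41 and 0.78, or 0.26 and 0.48 with the block. The neutrophil and granulocyte progenitor genes were at -0.72 and -0.43, or -0.47 and 0.01 with the block. Bbc3 averaged 11.8 in FancgKO_Mdm4Tg (n = 3) and 14.2 in FancgKO (n = 4) with PBS, a log2 difference of -0.13. The FancgKO mean was raised by a library at 29.4, and the medians were 10.35 in FancgKO_Mdm4Tg and 9.356 in FancgKO. With Poly(IC) Bbc3 averaged 8.5 in Mdm4Tg (n = 2) and 10.2 in WT (n = 3), a log2 difference of -0.27. Ppm1d was at -0.01 and 0.03 in these comparisons. None of these differences of effect was called, so the lists and genes are not shown to respond otherwise in one setting than in another.

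**Figure D5:**
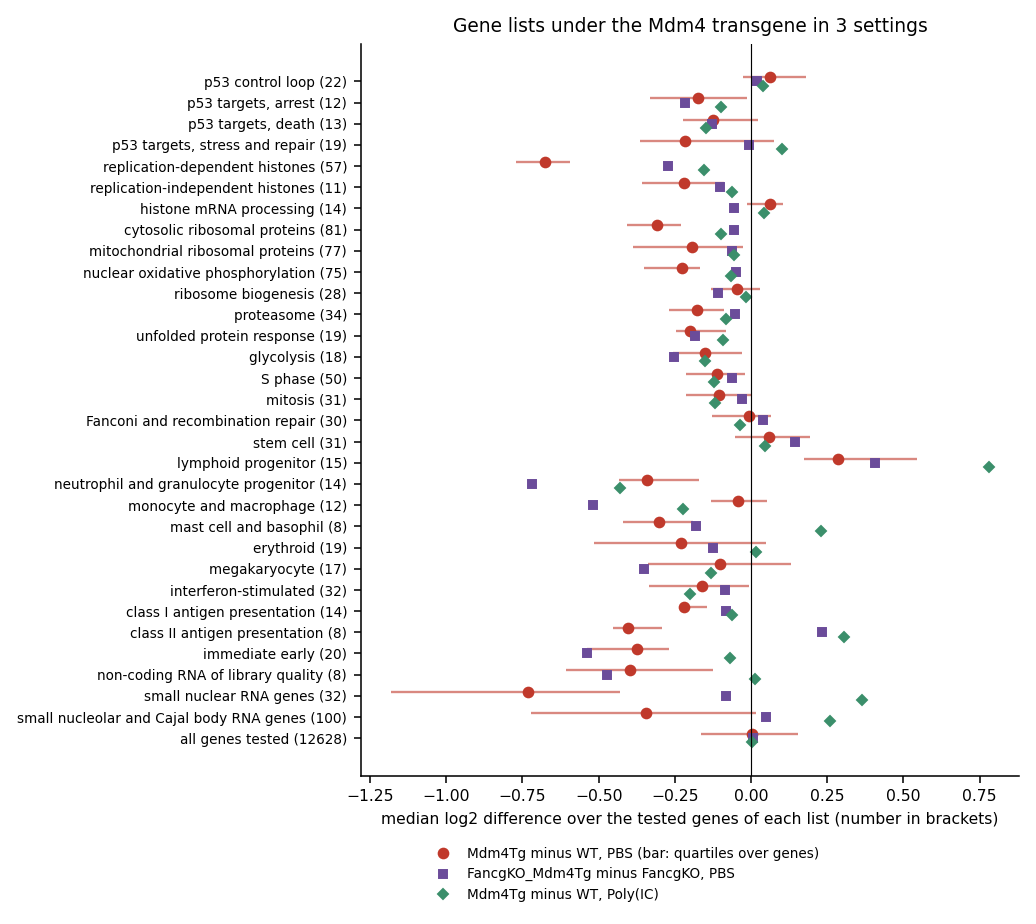
Median log2 difference over the tested genes of each list (horizontal axis) for Mdm4Tg minus WT with PBS (red circles, bars from the first to the third quartile over genes), FancgKO_Mdm4Tg minus FancgKO with PBS (purple squares) and Mdm4Tg minus WT with Poly(IC) (green diamonds), with the number of genes in brackets. The replication-dependent histones stand at -0.67, -0.27 and -0.15 in these 3 settings, and all genes at 0.003, 0.006 and 0.002.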

How the data were processed

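Libraries of polyadenylated RNA, per the labels, were prepared with the CATS kit, and STAR and the mm10 genome are named per the submitters' processing notes. The counter, the normalization tool and the strand setting are not given in the sources used here. The deposited table holds 1 signal value per gene and library, normalised counts made by the authors. In each library 100% of values were whole multiples of 1 value within a relative tolerance of 1e-06, so whole reads were recovered, 807686 to 8229715 per library. The table pairs 16217 of its 26267 genes with symbols, GENCODE on GRCm38 supplied 10006 more, and 44 stayed unnamed. Overlapping genes and the near-identical histone copies could share reads, so single histone genes are uncertain.

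Log2(normalised count + 1) was fitted as 8 group means over 24 libraries in limma 3.58.1 under R 4.3.3, with the prior variance following the mean. Genes needed 10 or more in 2 or more libraries, and Benjamini-Hochberg adjusted p under 0.05 was the threshold. edgeR 4.0.16 and DESeq2 1.42.0 on the recovered reads were alternatives, and scripts were tested on simulated data. Same-numbered Mdm4Tg and WT libraries correlated at 0.293, 0.314 and 0.378 for numbers 2, 7 and 8 after group means were removed. They were treated as pairs from this check, not from a stated design, and libraries of different number with the same column ending also correlated, at 0.243 to 0.443.

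The members and the 34 gene lists were chosen with earlier results of these data known, and 2 lists were added later. Named were Mdm4, Mdm2, Trp53, Cdkn1a, Fancg and Ly6a, the 12 genes of smallest p per direction with a mean of 50 or more, up to 4 of smallest p per list, those called with the block, and the neighbours of Mdm4. Other genes named were chosen after their values were seen. Sequences were taken from RefSeq and GENCODE on GRCm38. Tables and figures used python 3.11.15, numpy 2.4.6, pandas 2.3.3 and matplotlib 3.10.9.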

Additional observations from a re-analysis of the deposited data

Results flagged for a closer look

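In groups of 4 libraries a single library can lie apart from the other 3, and chance alone marks about 1 in 20 such groups. The check covered 70 genes, so a few marked genes are what chance alone would give. Mdm4 was lowest in WT replicate 6, at 758.3, while the other WT libraries lay between 938.4 and 955. In the same library Cox5b was highest, at 73.44, against 55.18 to 56 in the others, and Pf4, the platelet factor 4 gene of megakaryocytes, was highest, at 126.5, against 24.79 to 38.46. Myg1, a mitochondrial and nucleolar exonuclease gene, was highest in WT replicate 2, at 74.38, against 51.84 to 53.98. No explanation was tested.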

How the results depend on the processing

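The call of Mdm4 was the same in every alternative run, at 2.79 to 2.97 on the log2 scale, and at 2.79 to 2.93 as single libraries were left out with or without the block. The count of called genes was 1 in each alternative except 3 kinds. Without the expression filter it was 2, the second being the low-count gene 4930547E08Rik at 2.67. With only the 7 libraries and the replicate block it was 23. Leaving single libraries out of that fit gave 34, 160 and 35 without Mdm4Tg replicates 2, 7 and 8, and 32, 22, 156 and 36 without WT replicates 2, 6, 7 and 8, with fewer samples in each. Leaving out single libraries from the fit over 24 kept the count at 1. The difference of the transgene effect by Fancg or by Poly(IC) gave 0 in every alternative. The log2 difference of Trp53 changed sign to 0.018 with the replicate block, 0.011 with the block and TMM scaling, 0.0085 with only the 7 libraries and the block, 0.0038 with the column ending as a covariate and 0.011 in edgeR with the block. Without Mdm4Tg replicate 8 Trp53 was at 0.047 and without Mdm4Tg replicate 2 the log2 difference of Cdkn1a was at 0.145. With the replicate block and single libraries left out, Trp53 was at 0.094 and 0.043 without Mdm4Tg replicates 2 and 8, and at 0.092 and 0.0066 without WT replicates 2 and 7. Cdkn1a was at 0.012 without Mdm4Tg replicate 8 and at 0.138 and 0.139 without WT replicates 2 and 7. Without Mdm4Tg replicate 7 and with the block, the log2 difference of Fancg was 0.033 and the log2 difference of Rbbp5 was -0.067. Over all such settings Trp53 ran from -0.23 to 0.09, Cdkn1a from -0.72 to 0.28 and the log2 difference of Pik3c2b from -0.10 to 0.51. The cause was not tested for any of these. Of 2131 values of 69 named genes, 2102 kept direction and side of the threshold, 7 passed only with the 7 libraries and the block, and 22 changed sign. Of 909 list medians 897 moved by less than the spread between replicates. The histone median ran from -1.11 to -0.28 and the cytosolic ribosomal median from -0.48 to -0.06, their ends set by single libraries left out, the oxidative phosphorylation median from -0.31 to -0.02, and the small nuclear RNA median from -0.97 to -0.16. Depth limits Bbc3 and Ebf1, which rest on at most 32 and 38 reads in a library.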
